A study of Homo sapiens with 9 samples.

Results

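The 8 genes described here were the transcriptional repressor REST, its corepressors RCOR1, RCOR2, RCOR3 and SIN3A, and the small phosphatases CTDSP1, CTDSP2 and CTDSPL. They were taken from the table by gene symbol, as 8 of 22295 entries, of which 19932 carry a symbol, and all 8 passed the filter on low values. The study asked which mRNAs change when PTBP1, a splicing repressor of non-neuronal cells, is knocked down in the human glioblastoma line U251 to turn the cells towards a neural state. Total RNA was sequenced as 9 libraries, 3 in each of 3 groups. The control cells (sh-Luci-3d) carried a control lentiviral hairpin against luciferase and were collected 3 days post infection (dpi). The knockdown cells carried a hairpin against PTBP1 and were collected at 3 dpi (sh-Ptbp1-3d) or 7 dpi (sh-Ptbp1-7d). All groups were U251 cells infected with lentivirus, and in the study's scheme the medium was changed before the earlier collection to a neuronal induction medium containing forskolin and dorsomorphin. A single hairpin sequence in a single cell line was sequenced, and the 9 libraries include no control cells of 7 dpi. In comparisons with sh-Ptbp1-7d the knockdown, the days in culture and the days in induction medium therefore cannot be told apart. Nothing states that the 3 libraries of a group came from separate infections, and the p-values measure only the spread between these libraries.

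REST is a zinc finger protein that binds a DNA element named RE1 near neuronal genes and keeps them silent in cells that are not neurons. It works through scaffolds: SIN3A brings histone deacetylases to one end of the protein, and RCOR1, also named CoREST, brings histone deacetylases and the histone demethylase KDM1A to the other. CTDSP1, CTDSP2 and CTDSPL remove phosphate from the tail of RNA polymerase II and take part in the silencing of neuronal genes, and CTDSP1 is also known to act on the REST protein itself. In other cells the microRNA miR-124 lowers CTDSP1, PTBP1 shields some miR-124 targets, and REST silences the miR-124 genes, which closes a loop.

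The phosphatase genes share a feature that their mRNA values do not show: each carries a gene of the miR-26 family in an intron. By GENCODE v29 on GRCh38, MIR26B (chr2:218402646-218402722, plus strand) lies in CTDSP1, MIR26A2 (chr12:57824609-57824692, minus strand) in CTDSP2 and MIR26A1 (chr3:37969404-37969480, plus strand) in CTDSPL. Each runs on the strand of its host and overlaps 0 exons of the host's protein-coding transcripts. The mature sequences, from RefSeq on GRCh38.p14, are shown because this family is what the 3 host genes have in common. The capitals mark the seed, bases 2 to 8.
hsa-miR-26a-5p: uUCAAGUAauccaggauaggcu
hsa-miR-26b-5p: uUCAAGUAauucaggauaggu
The seed is the same in both. Its match TACTTGA, searched on the sense strand, stood once in the 3′ UTR of REST and once in that of RCOR1, and 0 times in those of the other 6 genes. It is shown in capitals with 10 bases on either side.
REST, UTR bases 395 to 401: aatagcaaatTACTTGAagaatttgcc
RCOR1, UTR bases 2814 to 2820: aacaccttgtTACTTGAatattgtgtt
Of 19540 GENCODE 3′ UTRs, 10.15% hold the match. Only 1 protein-coding transcript a gene was searched, that of the best APPRIS level and then of the longest 3′ UTR. Of the UTRs at least as long, 25.5% hold it within as many bases as the REST UTR has (3695), and 27.6% within as many as the RCOR1 UTR has (4073). For the other 6 genes this share was 1.85% for RCOR3 (254 bases), 4.8% for RCOR2 (647), 11.1% for CTDSP1 (1519) and 18.7% for SIN3A (2603). It was 24.7% for CTDSPL (3605) and 25.6% for CTDSP2 (3678). MicroRNAs were not measured in these libraries, and a match is a description of the letters, not of a site in use.

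PTBP1, the target of the hairpin, stood at 115.7 ± 7.58 FPKM in the controls, against 63.9 ± 2.67 FPKM in the 3 dpi knockdown and 50.5 ± 0.645 FPKM in the 7 dpi knockdown (SD, n = 3 for each), and no group overlapped another. FPKM is the number of fragments of a transcript scaled by its length and by the mapped fragments of the library. The depth of the libraries is unknown, and their FPKM values sum to between 367412 and 404922. The label U251 was compared with marker lists: the summed level of 6 astroglial and glioma markers was 4362 to 4483 FPKM in the controls, 4447 to 4751 FPKM in the 3 dpi knockdown and 1236 to 1371 FPKM in the 7 dpi knockdown. Most of this sum was VIM, at a mean of 4168, 4381 and 1169 FPKM in the same order of groups. VIM and CD44 fell and S100B rose between the knockdown groups, while GFAP stayed at a mean of at most 0.586 FPKM in every group. NES and SOX9 did not pass an adjusted p of 0.01 (limma, 0.0860 and 0.0126). The sum of 6 neuronal markers was 264 to 315, 333 to 352 and 153 to 161 FPKM in the same order of groups, with TUBB3 falling and MAP2 rising. Most of it was TUBB3, at a mean of 261.3, 316.9 and 118.2 FPKM. Blood and immune markers summed to at most 0.107 FPKM, and 2 of the 5 were listed at 0 in every library. The sh-Ptbp1-3d replicate 3 library stood apart from all others in a number of neuronal genes. STMN2 was at 11.5 FPKM there and listed at 0 in the other 8 libraries. INA was at 1.84 FPKM and otherwise listed at 0, and DCX was at 2.14 FPKM and otherwise at most 0.0346 FPKM. Other genes of the REST target list used below were also highest there. Among them were RUNDC3A (0.673 FPKM, otherwise at most 0.245 FPKM) and, under the filter on low values, SCG3 (0.297 FPKM) and CHGA (0.319 FPKM). STMN3 and SCG2 of that list were not. These genes were chosen after their values were seen. RCOR2 and the list counts of 7 dpi against sh-Ptbp1-3d are given with and without the sh-Ptbp1-3d replicate 3 library. Single genes of the REST target list are given only with it. The part of these shifts in the results below was not tested.

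In sh-Luci-3d the 8 genes were spread over 2 orders of magnitude. CTDSP2 (19.9 ± 0.688 FPKM), RCOR3 (17.9 ± 2.91 FPKM) and CTDSP1 (15.1 ± 1.14 FPKM) were at the top, and the libraries of neighbours in this order overlapped. SIN3A (8.28 ± 0.607 FPKM) came next, apart from its neighbours on both sides. REST (6.36 ± 0.851 FPKM) and RCOR1 (6.27 ± 0.714 FPKM) overlapped each other, CTDSPL stood below at 3.84 ± 0.226 FPKM and RCOR2 last at 0.182 ± 0.115 FPKM (SD, n = 3 for each). At 7 dpi the order changed at the top, where CTDSP1 (31.5 ± 1.68 FPKM) and CTDSP2 (28.9 ± 1.91 FPKM) overlapped each other and stood above RCOR3 (14.8 ± 0.704 FPKM). The order of SIN3A, REST, RCOR1, CTDSPL and RCOR2 was as in sh-Luci-3d.

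**Figure D1:**
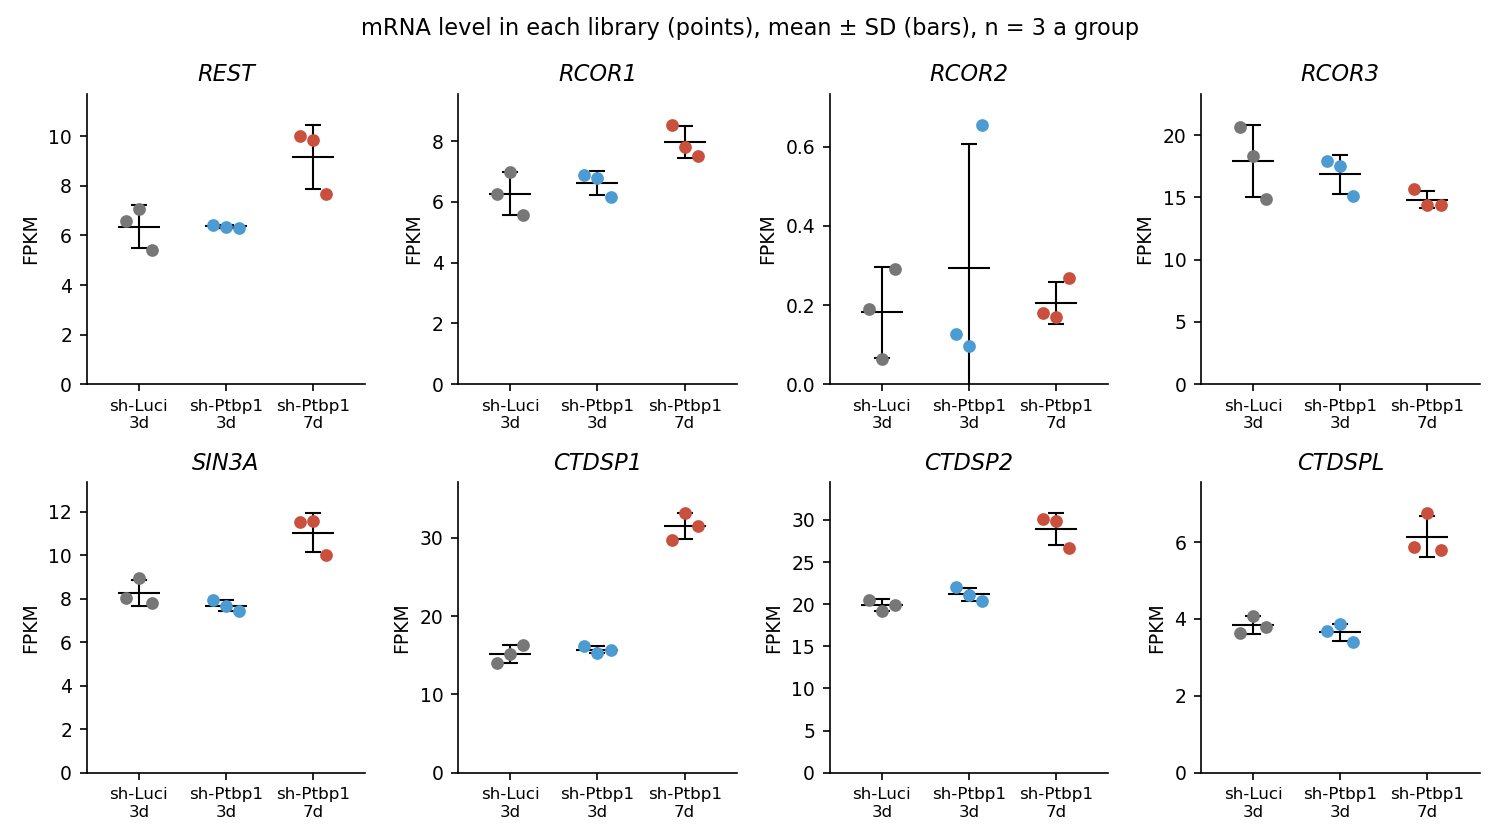
Level of each gene in FPKM (vertical axis, from 0, scaled for each gene) in the 3 libraries of each group. Points are libraries and bars are the mean ± SD (n = 3), and for RCOR2 in sh-Ptbp1-3d the lower bar runs out of the axis. The sh-Ptbp1-7d points of REST, RCOR1, SIN3A, CTDSP1, CTDSP2 and CTDSPL lie above all points of the other groups, those of RCOR3 and RCOR2 do not.

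At 3 dpi none of the 8 genes differed between the knockdown and the control beyond the spread of the libraries. By limma on log2(FPKM + 0.1), with Benjamini-Hochberg adjustment over the 15551 entries tested, 0 of 8 passed an adjusted p of 0.05 and 0 of 8 an unadjusted p of 0.05. Over all entries, 5 passed the adjusted threshold (0.0322%), and 1126 had an unadjusted p under 0.05. The log2 fold changes of the 8 lay between -0.10 (SIN3A) and 0.29 (RCOR2), with adjusted p between 0.833 and 0.995. The 95% intervals show what size of change these libraries leave possible: -0.28 to 0.30 for REST, -0.32 to 0.11 for SIN3A, -0.13 to 0.24 for CTDSP1 and -0.08 to 0.26 for CTDSP2. For RCOR2 the interval ran from -0.85 to 1.43, which includes a 2-fold rise. At the same time point PTBP2, the paralog that PTBP1 represses in non-neuronal cells, was at 6.54 ± 1.68 FPKM in the controls and 17.8 ± 1.34 FPKM in the knockdown (SD, n = 3), a log2 difference of 1.46.

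At 7 dpi 5 of the 8 genes were higher than at 3 dpi in the knockdown cells: REST, SIN3A and the phosphatases CTDSP1, CTDSP2 and CTDSPL. RCOR1, RCOR2 and RCOR3 did not pass the threshold, an adjusted p of 0.01. The comparison moved a large part of the transcriptome, so the count is read against 35.8% of all entries that passed in either direction and 20.3% that passed upwards. With a fold change above 2 in addition, 0 of the 8 genes and 14.2% of all entries passed. The libraries of 6 of the 8 genes lay wholly above those of sh-Ptbp1-3d, which was so for 35.3% of all entries. The median log2 fold change was 0.48 over the 8 genes and 0.09 over all entries tested. In bulk RNA a change in the share of a cell type and a change in RNA per cell cannot be told apart.

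**Figure D2:**
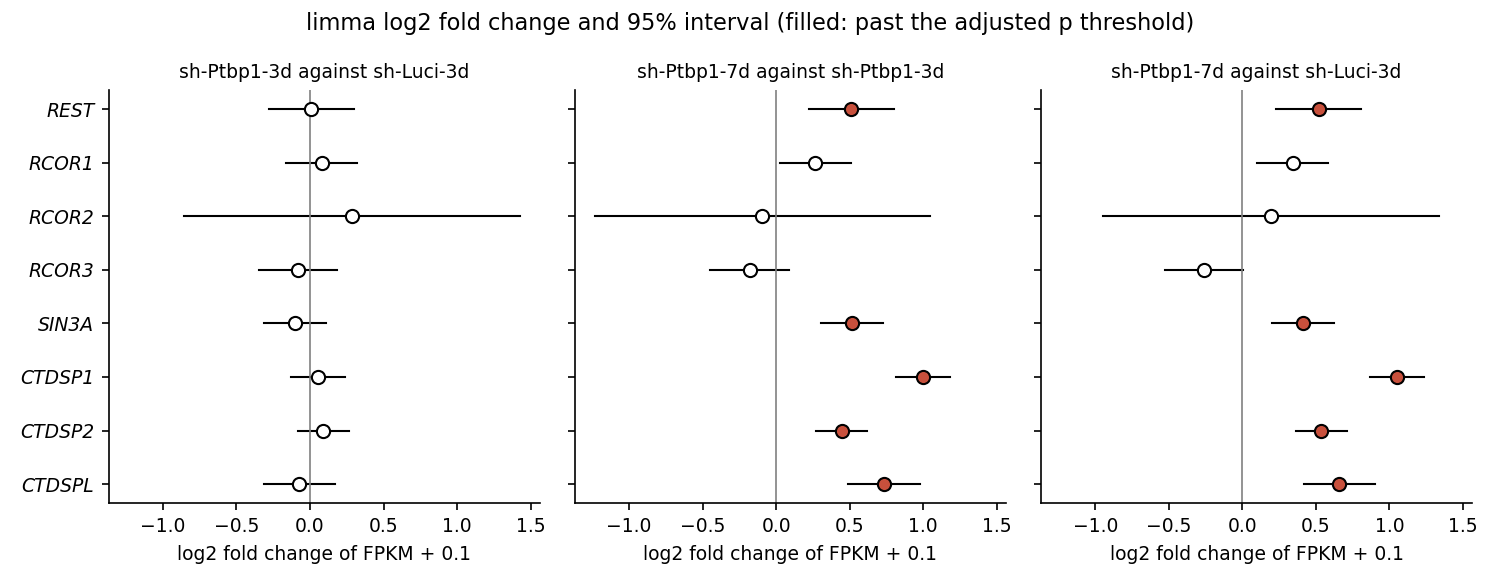
Log2 fold change of FPKM + 0.1 (horizontal axis) of the 8 genes in the 3 comparisons, with the 95% interval from limma. Filled points passed the adjusted p threshold of their comparison (0.05 at 3 dpi, 0.01 at 7 dpi): 0 genes on the left, and REST, SIN3A, CTDSP1, CTDSP2 and CTDSPL in the middle and on the right.

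REST itself (chr4:56907876-56966678, plus strand) was at 6.59, 7.06 and 5.41 FPKM in the controls, at 6.43, 6.34 and 6.31 FPKM in the 3 dpi knockdown and at 9.99, 9.83 and 7.67 FPKM in the 7 dpi knockdown. All 3 libraries of 7 dpi lay above the other 6, and the spread among them was larger than among those of sh-Ptbp1-3d. The mRNA rose 1.44-fold between the means of the knockdown groups (log2 fold change 0.51, standard error 0.130, limma adjusted p = 0.00763), and by 0.52 on the log2 scale against sh-Luci-3d (adjusted p = 0.00689). This call stood close to its threshold. In 10 of the 20 alternative settings it was lost against sh-Ptbp1-3d, with adjusted p between 0.00250 and 0.0359, although the direction was the same in all 20. Without sh-Ptbp1-3d replicate 1, 2 or 3 the adjusted p was 0.0228, 0.0249 and 0.0290, without sh-Ptbp1-7d replicate 1 or 2 it was 0.0352 and 0.0359, and without sh-Luci-3d replicate 1 it was 0.0111. The call was also lost under median-ratio scaling (limma adjusted p = 0.0116) and quantile normalization (0.0120). The same was so without the filter on low values (0.0126) and without the intensity trend (0.0148). Against sh-Luci-3d the call was lost in 12 of 20 settings, with adjusted p up to 0.0330 (without sh-Ptbp1-7d replicate 2). The libraries whose removal lost that call were sh-Ptbp1-3d replicates 1, 2 and 3 (adjusted p = 0.0120, 0.0120 and 0.0144), sh-Ptbp1-7d replicate 1 (0.0323) and 2, and sh-Luci-3d replicates 1 (0.0148) and 3 (0.0153). That call was also lost in the same settings of scaling, filter and trend, and in a fit of the 2 groups alone (limma adjusted p = 0.0259). The end of REST overlaps exons of NOA1, a gene on the opposite strand, and whether fragments were counted by strand is not given in the sources used here. NOA1 was at 14.9 ± 0.508 FPKM at 3 dpi and 11.9 ± 0.952 FPKM at 7 dpi in the knockdown (SD, n = 3), a log2 difference of -0.33 (limma adjusted p = 0.0151). The part of the overlap in the values of either gene was not tested.

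SIN3A (chr15:75369379-75455842, minus strand), the scaffold of the deacetylase complex, was at 8.06, 8.96 and 7.81 FPKM in the controls, at 7.96, 7.65 and 7.46 FPKM in the 3 dpi knockdown and at 11.5, 11.6 and 10.01 FPKM in the 7 dpi knockdown. The 7 dpi libraries again lay above the other 6. SIN3A rose by 0.51 on the log2 scale against sh-Ptbp1-3d (standard error 0.0962, limma adjusted p = 0.00120) and by 0.41 against sh-Luci-3d (adjusted p = 0.00462). The first call held in all 20 settings. The second was lost in 6, among them those without sh-Ptbp1-7d replicate 1 (adjusted p = 0.0220), without sh-Ptbp1-7d replicate 2 (0.0242) and without sh-Luci-3d replicate 1 (0.0178). Over the 9 libraries, SIN3A had the profile nearest to REST among the other 7 genes, with a root mean square difference of 0.0911 on the log2 scale after each gene was centred on its own mean.

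The RCOR genes did not pass the threshold at 7 dpi, and did not lean the same way. RCOR1 (chr14:102592661-102730576, plus strand) was at 6.25, 6.99 and 5.57 FPKM in the controls, at 6.88, 6.78 and 6.15 FPKM in the 3 dpi knockdown and at 8.54, 7.82 and 7.51 FPKM in the 7 dpi knockdown. The 7 dpi libraries did not overlap the others, but the log2 fold change of 0.26 against sh-Ptbp1-3d (95% interval 0.02 to 0.51) had a limma adjusted p of 0.0656, and that of 0.34 against sh-Luci-3d one of 0.0232. RCOR3 (chr1:211258377-211316385, plus strand) was at 20.6, 18.3 and 14.8 FPKM, 17.9, 17.5 and 15.1 FPKM, and 15.6, 14.4 and 14.4 FPKM in the same order of groups. These libraries overlapped between all groups, and the log2 fold change was -0.18 against sh-Ptbp1-3d (95% interval -0.45 to 0.09, limma adjusted p = 0.242) and -0.26 against sh-Luci-3d (adjusted p = 0.0967). Without sh-Luci-3d replicate 3, the lowest control library, RCOR3 passed against sh-Luci-3d, with a log2 fold change of -0.39 (adjusted p = 0.00607). RCOR2 (chr11:63911221-63916844, minus strand), the paralog known from embryonic and neural stem cells, was near the filter on low values in all groups. It was at 0.191, 0.0630 and 0.292 FPKM in the controls, at 0.127, 0.0966 and 0.656 FPKM in the 3 dpi knockdown and at 0.179, 0.171 and 0.268 FPKM in the 7 dpi knockdown. The highest value was that of the sh-Ptbp1-3d replicate 3 library described above. With this library the log2 fold change between the knockdown groups was -0.09 (95% interval -1.23 to 1.05), and without it 0.52 (limma adjusted p = 0.313), so no direction can be given for RCOR2.

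Of the 8 genes, CTDSP1 and CTDSPL moved furthest at 7 dpi. CTDSP1 (chr2:218398256-218405941, plus strand) was at 14.0, 15.1 and 16.3 FPKM in the controls, at 16.2, 15.3 and 15.7 FPKM in the 3 dpi knockdown and at 29.8, 33.1 and 31.5 FPKM in the 7 dpi knockdown. The lowest 7 dpi library was far above the highest of the other 6. The means of the knockdown groups differed 2.01-fold, and the log2 fold change was 0.998 (standard error 0.0827, limma adjusted p = 3.83e-06), just under the 2-fold limit on this scale. Against sh-Luci-3d it was 1.05 (adjusted p = 2.50e-06), which made CTDSP1 the 1 gene of the 8 past that limit, where 14.6% of all entries passed it. Over the 20 alternative settings the log2 fold change lay on either side of the limit. It ran from 0.911 to 1.10 against sh-Ptbp1-3d and from 0.952 to 1.13 against sh-Luci-3d.

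CTDSPL (chr3:37861960-37984469, plus strand) was at 3.64, 4.09 and 3.80 FPKM in the controls, at 3.68, 3.86 and 3.40 FPKM in the 3 dpi knockdown and at 5.86, 6.75 and 5.80 FPKM in the 7 dpi knockdown. It rose by 0.73 on the log2 scale against sh-Ptbp1-3d (standard error 0.110, limma adjusted p = 0.000273) and by 0.66 against sh-Luci-3d (adjusted p = 0.000538). CTDSP2 (chr12:57819927-57846739, minus strand) was at 20.6, 19.2 and 19.9 FPKM in the controls, at 22.0, 21.1 and 20.4 FPKM in the 3 dpi knockdown and at 30.1, 29.9 and 26.7 FPKM in the 7 dpi knockdown. Its log2 fold changes were 0.45 (standard error 0.0783, limma adjusted p = 0.000795) and 0.54 (adjusted p = 0.000227). For all 3 phosphatases the 7 dpi libraries lay above the other 6, and both calls held in all 20 settings. Antisense genes overlap exons of CTDSP1 (AC021016.3) and of SIN3A (AC068338.2), and without strand their fragments cannot be told apart from those of the gene.

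Against sh-Luci-3d the same 5 genes passed at 7 dpi, all upwards, where 35.6% of all entries passed in either direction and 20.6% upwards. The libraries of 6 genes lay wholly above those of sh-Luci-3d, against 32.8% of all entries, and the median log2 fold change was 0.47 over the 8 genes and 0.10 over all entries. Both comparisons share the sh-Ptbp1-7d libraries. The count fell to 3, the phosphatases alone, without sh-Ptbp1-7d replicate 1, without sh-Ptbp1-7d replicate 2 and without sh-Luci-3d replicate 1, and also under median-ratio scaling, under quantile normalization and in a fit of these 2 groups alone. Median-ratio scaling moved the medians of all entries by -0.09 and -0.10 in the 2 comparisons with sh-Ptbp1-7d, and TPM moved them by 0.10 and 0.08. The share of all calls that were upwards was 56.6% against sh-Ptbp1-3d and 57.9% against sh-Luci-3d, and 48.0% and 47.7% after quantile normalization.

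FPKM is per length, so the paralogs of a family can be set side by side. The summed level of the 3 phosphatases was 38.9 ± 0.994 FPKM in the controls, 40.5 ± 1.23 FPKM in the 3 dpi knockdown and 66.5 ± 2.97 FPKM in the 7 dpi knockdown (SD, n = 3), and that of the RCOR genes 24.4 ± 3.30, 23.7 ± 1.63 and 23.0 ± 1.19 FPKM. The phosphatase sum was 1.64 times higher at 7 dpi than in sh-Ptbp1-3d, while the RCOR sums of all groups overlapped. Within the phosphatases, CTDSP1 held 38.6%, 38.0% and 39.7% of the sum in sh-Ptbp1-3d and 45.3%, 47.5% and 49.2% in sh-Ptbp1-7d. CTDSP2 held 52.6%, 52.5% and 51.7%, and then 45.8%, 42.9% and 41.7%. The larger share thus passed from CTDSP2 to CTDSP1 in 2 of the 3 libraries of 7 dpi. CTDSPL had a mean share of 9.01% and 9.22%. Within the RCOR genes, RCOR1 held 27.6%, 27.8% and 28.1% in sh-Ptbp1-3d and 35.1%, 34.9% and 33.8% in sh-Ptbp1-7d. RCOR3 held 71.9%, 71.8% and 68.9%, and then 64.2%, 64.3% and 65.0%, and RCOR2 a mean of at most 1.30% in any group. The shares of CTDSP1, CTDSP2, RCOR1 and RCOR3 did not overlap between 3 and 7 dpi. With 3 libraries against 3 the exact permutation test, two-sided, cannot go below p = 0.1, which is its value for each of these 4 shares. This is an adjusted p of 0.218 over the 24 comparisons of sums and shares. The RCOR1 share at 3 dpi against the controls (27.8% ± 0.262 against 25.9% ± 2.39, SD, n = 3) had the same p and adjusted p. These groups were barely apart, with 27.58% as the lowest knockdown share and 27.54% as the highest control share. A scaling of whole libraries leaves the shares as they are.

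The partners of these scaffolds did not move together at 7 dpi. Of 24 genes of REST complexes, 3 rose and 4 fell against sh-Ptbp1-3d, with a median log2 fold change of -0.01. Of all 15551 entries, 3152 rose and 2418 fell past the same threshold, or 35.8% in either direction. Against sh-Luci-3d 35.6% passed. PHF21A, a histone reader of the CoREST complex, rose from 7.48 ± 0.308 to 12.4 ± 0.893 FPKM (log2 fold change 0.72, limma adjusted p = 0.000635). SAP30L and ARID4B, subunits of SIN3 complexes, rose by 0.65 and 0.63 on the log2 scale (adjusted p = 0.00205 and 0.00437). The falling genes included the catalytic deacetylase HDAC1, which was at 70.5, 69.3 and 65.5 FPKM at 3 dpi and 44.8, 44.4 and 40.9 FPKM at 7 dpi (log2 fold change -0.66, adjusted p = 3.36e-05). SAP30, the close paralog of SAP30L, fell from 75.3 ± 4.11 to 30.4 ± 3.31 FPKM (log2 fold change -1.31, adjusted p = 4.86e-05). The histone chaperone RBBP7 fell by 0.55 and HMG20B, a DNA-binding subunit of the CoREST complex, by 0.48 on the log2 scale (adjusted p = 9.08e-05 and 0.00497). The demethylase KDM1A was at 23.4 ± 0.518 and 23.4 ± 1.15 FPKM, a log2 fold change of -0.0042 (adjusted p = 0.968). With 1 library left out in turn, 1 to 7 genes rose and 3 to 6 fell: 1 rose without sh-Ptbp1-3d replicate 3, sh-Ptbp1-7d replicate 1 or sh-Ptbp1-7d replicate 2, and 7 rose without sh-Luci-3d replicate 3. Against sh-Luci-3d also 3 rose and 4 fell at 7 dpi, but not all of them the same genes: EHMT1 and SUDS3 passed there in place of ARID4B (adjusted p = 0.0304) and HMG20B (adjusted p = 0.161). At 3 dpi 0 of 24 passed.

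Of 9 regulators of the REST protein or of its splicing, 8 were tested, and 2 rose at 7 dpi against sh-Ptbp1-3d. Of all entries, 20.3% passed upwards in this comparison. BTRC, the ubiquitin ligase subunit that marks REST for degradation, went from 5.71 ± 0.191 to 8.47 ± 0.421 FPKM (log2 fold change 0.56, limma adjusted p = 0.00115). DYRK1A, a kinase that acts on the REST system, went from 6.90 ± 0.621 to 10.7 ± 1.79 FPKM (log2 fold change 0.61, adjusted p = 0.00401). SRRM4, the splicing factor that gives the short neuronal form of REST, was under the filter, with at most 0.0585 FPKM in any library, and FPKM per gene does not separate the forms of REST. Against sh-Luci-3d DYRK1A alone passed (adjusted p = 0.00326), and BTRC did not (adjusted p = 0.0180). With 1 library left out in turn, 1 to 3 of the 8 rose against sh-Ptbp1-3d, with 1 without sh-Ptbp1-3d replicate 2 or 3 or sh-Ptbp1-7d replicate 1 or 2. Of 6 other phosphatases of the CTD type, CTDNEP1, which works at the nuclear envelope, rose from 77.9 ± 2.92 to 95.3 ± 2.47 FPKM (log2 fold change 0.29, adjusted p = 0.00891). This call was lost, and 0 of the 6 rose, without any 1 library of the knockdown groups and without sh-Luci-3d replicate 1, and 2 rose without sh-Luci-3d replicate 3. It was also lost under median-ratio scaling (adjusted p = 0.0592), without the intensity trend (0.0238) and with a replicate block (0.0200). The median of these 6 was 0.28.

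Genes known to be silenced through REST went both ways. Of 31 such genes, 20 passed the filter, 5 rose, 3 fell and 12 did not pass at 7 dpi against sh-Ptbp1-3d, with a median log2 fold change of 0.07. Of all entries, 35.8% passed in this comparison. STMN2 and INA passed the filter only through sh-Ptbp1-3d replicate 3 (11.5 and 1.84 FPKM) and were listed at 0 elsewhere. Their log2 fold changes, -2.28 and -1.43, enter the median. The filter used all libraries, so both stayed among the 20 when this library was left out. The secretory granule protein gene SCG2 was at 2.75, 2.75 and 2.37 FPKM in the controls, at 1.89, 1.87 and 1.94 FPKM in the 3 dpi knockdown and at 50.9, 51.5 and 45.9 FPKM in the 7 dpi knockdown. Its log2 fold change of 4.63 (limma adjusted p = 6.52e-10) was the largest of the list. STMN3, a microtubule regulator, rose from 8.25 ± 0.274 to 16.2 ± 0.890 FPKM, and CELSR3, a cadherin of axon guidance, from 2.35 ± 0.0964 to 4.70 ± 0.994 FPKM (log2 fold changes 0.96 and 0.95, adjusted p = 3.82e-05 and 0.000583). The other risers, GRIA2 and SCN2A, a glutamate receptor subunit and a sodium channel, stood at means of 1.08 and 0.368 FPKM at 7 dpi and are named after their values were seen. In sh-Ptbp1-3d GRIA2 was at 0.1735, 0.0477 and 0.5565 FPKM, the last in replicate 3. The cell adhesion gene L1CAM fell from 18.3 ± 0.702 to 2.39 ± 0.379 FPKM (log2 fold change -2.90, adjusted p = 2.27e-08). TUBB3, a neuronal tubulin, fell from 316.9 ± 4.57 to 118.2 ± 7.98 FPKM (-1.42, adjusted p = 6.91e-07). With 1 library left out in turn, 3 fell each time and 3 to 6 rose: 6 without sh-Ptbp1-3d replicate 3, and 3 without sh-Ptbp1-3d replicate 1 or 2 or sh-Ptbp1-7d replicate 1 or 2. The median then ran from -0.06 (without sh-Ptbp1-3d replicate 1) to 0.30 (without sh-Ptbp1-3d replicate 3). At 3 dpi 0 of the 20 passed against sh-Luci-3d, and at 7 dpi 6 rose and 3 fell against it.

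REST meets these genes through the RE1 element, whose strong left and right parts were searched as TTCAGCACC and GGACAGC on both strands of RefSeq promoter windows, 250 bases before to 50 after a gene start on GRCh38.p14. The left part stood in the windows of 5 of the 19 listed target genes that had one, in 0 of the 6 genes described here that had one, and in 0.469% of all 27305 genes, a gene being counted once whatever its number of windows. The right part, which is short, stood in 5 of the 19, in CTDSP1, RCOR1 and REST among the 6, and in 7.33% of all genes. Per window the shares were 0.376% and 6.03% of 35116, and the 6 genes had 15 windows and the 19 target genes 28. The windows with the left part are shown because they hold the letters of the element REST binds. Both parts are in capitals, on the strand of the element.
GRIA2, chr4:157220385-157220410, minus strand: ctTTCAGCACCgaGGACAGCgcctcg
SCG3, chr15:51681509-51681534, plus strand: acTTCAGCACCcacagggcGGACAGC
UNC13A, chr19:17688338-17688363, plus strand: ggTTCAGCACCgggggcgcGGACAGC
CELSR3, chr3:48663011-48663036, minus strand: tgTTCAGCACCaggagcaacgctcac
SYN1, chrX:47620067-47620092, minus strand: gcTTCAGCACCgcggacagtgccttc
In GRIA2, SCG3 and UNC13A both parts lie within the 26 bases shown, with 2 bases between them in GRIA2 and 8 in SCG3 and UNC13A, and in CELSR3 and SYN1 the exact right part does not. Of these 5 genes GRIA2 and CELSR3 rose, SYN1 did not pass (log2 fold change 0.08, limma adjusted p = 0.904), and SCG3 and UNC13A were under the filter. RE1 elements outside these windows were not searched.

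Of 14 genes known as targets of miR-124 beside the 8 described here, 13 were tested, and 2 rose and 6 fell at 7 dpi against sh-Ptbp1-3d, with a median log2 fold change of -0.34. Of all 15551 entries, 3152 rose and 2418 fell, or 35.8% in either direction. The falling genes include PTBP1, which the hairpin targets. IQGAP1, a scaffold of the cell cortex, fell from 49.7 ± 3.06 to 21.7 ± 2.53 FPKM (log2 fold change -1.20, limma adjusted p = 2.49e-05). The integrin subunit ITGB1 and the chromatin remodelling subunit ACTL6A fell by 0.57 and 0.51 on the log2 scale (adjusted p = 0.00116 and 0.000104). SLC16A1, a lactate transporter, rose from 46.3 ± 1.96 to 81.8 ± 4.36 FPKM (0.82, adjusted p = 2.20e-05), and the ligand EFNB1 rose by 0.56 (adjusted p = 0.00839). With 1 library left out in turn, 1 to 3 rose and 4 to 8 fell: 1 rose without any 1 library of the knockdown groups and without sh-Luci-3d replicate 2, and 3 rose and 8 fell without sh-Luci-3d replicate 3. CTDSP1, which belongs to the known targets as well, rose. The median of this list, -0.34, is the log2 fold change of PTBP1 itself. Action of miR-124 was not tested. Of 6 miR-124 loci searched by symbol, 0 were entries of the table, so their levels cannot be given here.

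**Figure D3:**
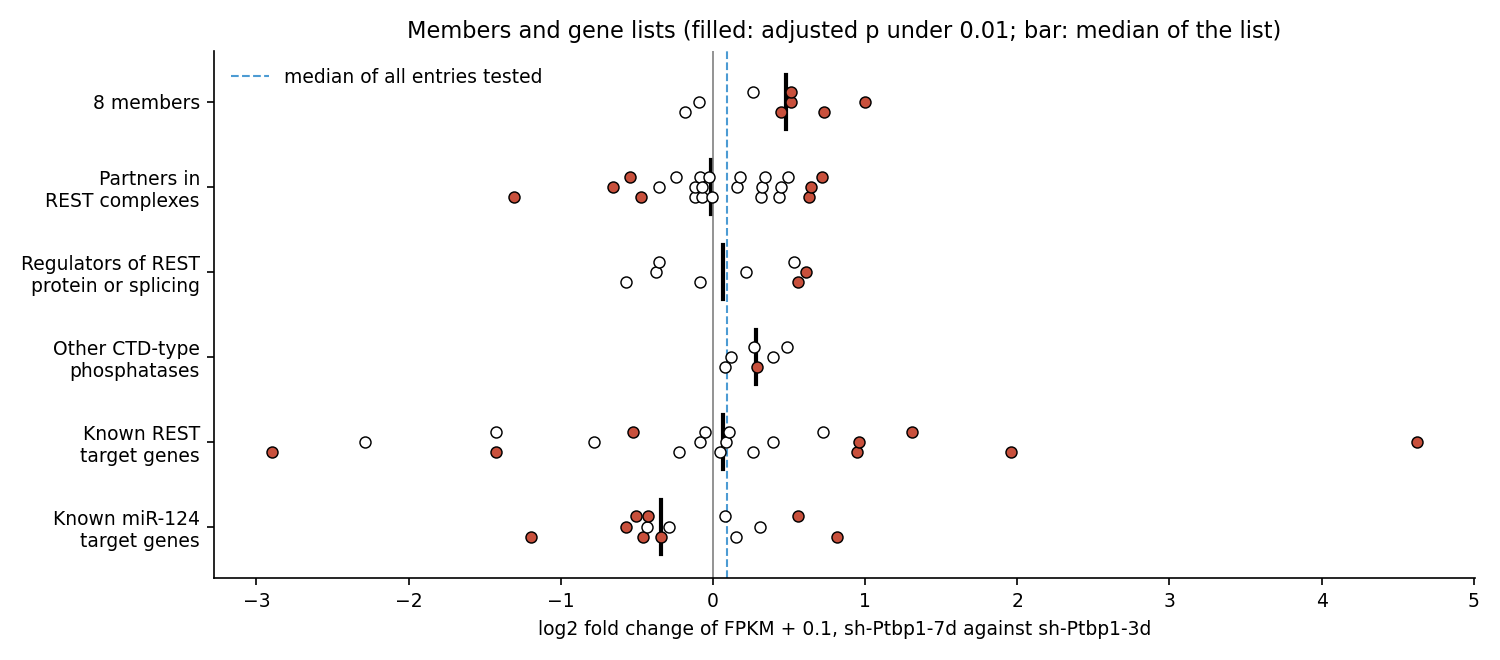
Log2 fold change of FPKM + 0.1 between the knockdown groups, 7 against 3 dpi (horizontal axis) for the 8 genes and the tested genes of 5 lists, 1 point a gene. Filled points passed an adjusted p of 0.01, black bars are the medians (0.48 for the 8 genes, -0.01, 0.06, 0.28, 0.07 and -0.34 for the lists from top to bottom), and the dashed line is the median of all entries, 0.09.

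The genes whose profile over the 9 libraries was nearest to each of the 8 were found by the root mean square difference of the centred log2 values among 11339 entries with a symbol and a mean of at least 1 FPKM, or 11340 for RCOR2. They were PALM2AKAP2, TNKS2 and C6orf120 for REST (0.0457 to 0.0470), LTBP1, TBRG1 and SCFD2 for SIN3A (0.0432 to 0.0472), and WIPI1, HEATR6 and RIN2 for RCOR1 (0.0403 to 0.0598). For RCOR3 they were IFT88, LTV1 and SPTLC3 (0.0509 to 0.0609), for CTDSP1 SHISA5, ADGRE5 and ZFP36 (0.0530 to 0.0627), for CTDSP2 FBH1, NEK9 and VAV2 (0.0360 to 0.0499), and for CTDSPL ZNF473, SECISBP2 and OPTN (0.0540 to 0.0630). For RCOR2 the nearest was LHX2, which differed by 0.325. RCOR2 itself was at a mean of 0.227 FPKM, and entries under 1 FPKM were not searched. All these libraries share the 3 groups, so likeness says only that the levels moved alike.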

How the data were processed

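The 9 RNA-seq libraries of U251 cells were sequenced on Illumina HiSeq. Per the methods, reads were filtered and aligned (the submitters' processing notes name HISAT2 and GRCh38), and the authors deposited a table of FPKM values that includes 2363 assembled loci. The counting program and its use of strand are not given in the sources used here. The authors also deposited the coordinates of the assembled loci, used here only to check the build: 49.6% of 43315 exons equal GENCODE v29 exons.

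Samples were grouped by their labels. From the FPKM values, log2(FPKM + 0.1) of the 15551 entries with a mean of at least 0.1 FPKM entered 1 limma model (version 3.58.1, R 4.3.3) of the 3 groups with an intensity trend. Benjamini-Hochberg adjustment ran over all entries, with the FDR limits of the study (0.05 at 3 dpi, 0.01 at 7 dpi). A fold change on this scale understates that of low genes. The fit was tested on simulated data. Shares were compared with the exact permutation test (scipy 1.17.1), and figures were drawn with matplotlib 3.10.9. From each list, the 3 largest rises and falls past the threshold with a mean of at least 1 FPKM were named. A gene of the REST target list is not reported here by name. HMG20B, KDM1A, EHMT1, SUDS3, SRRM4, S100B, NES, SOX9, GRIA2, SCN2A, STMN2, INA, DCX, RUNDC3A, SCG3, CHGA and GFAP are named outside this rule, after their values were seen. TUBB3, SYN1 and STMN2 are in both the REST target and neuronal marker lists, SOX9 in both the miR-124 target and astroglial lists. The genes, lists and tests were chosen with earlier results of these data known. Alternatives were other pseudocounts, filters and scalings, a fit of 2 groups, no trend, a replicate block and leaving out each library. The counts of list genes without each library in turn were added after seeing the data.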

Additional observations from a re-analysis of the deposited data

How the results depend on the processing

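Over the 8 genes and 3 comparisons, 477 values were recomputed under the alternatives: 436 kept their direction and their side of the threshold, 28 lost the call, 1 gained one and 12 changed sign. All sign changes were of values that passed in no setting, in sh-Ptbp1-3d against sh-Luci-3d or of RCOR2, and the cause was not tested. At 3 dpi REST turned to -0.0116 with TPM, -0.0031 with median-ratio scaling and -0.0013 with quantile normalization. With 1 library left out, the 3 dpi log2 fold changes ran from -0.1004 to 0.0888 for REST, -0.0035 to 0.1588 for RCOR1, -0.326 to 0.6455 for RCOR2, -0.2102 to 0.0254 for RCOR3 and -0.0003 to 0.1076 for CTDSP1. At 7 dpi RCOR2 turned to 0.0286 with TPM against sh-Ptbp1-3d, and with 1 library left out it ran from -0.4515 to 0.5201 against sh-Ptbp1-3d and from -0.156 to 0.4766 against sh-Luci-3d. The number of the 8 genes called against sh-Luci-3d at 7 dpi was 3 under median-ratio scaling, quantile normalization and a fit of the 2 groups alone, and 3 to 5 with 1 library left out. With a fold above 2 in addition it was 1 in the main fit, and 0 against sh-Ptbp1-3d. In both comparisons CTDSP1 lay on either side of this limit, depending on the setting. The number of all entries called at 3 dpi was 3 with quantile normalization, 3 without the trend, 0 in a fit of the 2 groups and 0 to 986 with 1 library left out (986 without sh-Luci-3d replicate 3). With a replicate block 5 and 5 of the 8 genes were called at 7 dpi, 0 entries at 3 dpi, and 5322 and 5390 entries at 7 dpi, and no call of the 8 genes changed. The deviations of same-numbered libraries correlated at -0.0185 to 0.0583, so the numbers were not taken to pair them. The depth behind the values is unknown, and RCOR2, at a mean of 0.227 FPKM over all libraries, had the widest intervals.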
